A study of Rattus with 26 samples.

Results

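Gene expression in the right hippocampus of young adult rats was compared between animals given insulin aspart through the nose and animals given saline. The comparison used 11 of the 26 arrays of the study, chosen by the words young and insulin or saline in their titles, and was described across all named genes. The young animals were male F344 rats that were 2 months old at the start and 5 months old at the end. For 3 months, 5 of them received insulin aspart, a rapid-acting analog of human insulin, and 6 received saline by the same route; the dose is not stated in the labels. All animals, controls included, were tested in the Morris water maze before the hippocampus was removed, so both groups had been trained to swim. Each animal gave 1 array, and the tissue was not sorted by cell type. The other 15 arrays came from animals that were 18 months old at the start and 21 months old at the end. Of these, 7 received insulin aspart and 8 saline for 3 months. Their arrays entered the fit to estimate the spread between animals, and their aspart effect is set beside that of the young animals.

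Insulin binds the receptor Insr, which phosphorylates the adaptors Irs1 and Irs2 and so activates phosphoinositide 3-kinase and the kinases Akt1 and Akt2. These kinases keep the transcription factors Foxo1 and Foxo3 out of the nucleus and release mTOR, while sterol and fatty acid synthesis genes respond through Srebf1. The hippocampus carries insulin receptors on neurons and glia, but takes up most of its glucose through Slc2a1 and Slc2a3, which do not need insulin. The array reads the RNA of these genes, not the phosphorylation by which the pathway carries its signal.

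The deposited values are on a log2 scale, and a difference of 1 is a 2-fold change on that scale. Of 15037 named genes, 11475 were bright enough to be tested. Technical measures differed between the 2 groups by less than their spread. The mean RNA integrity number, which scores how little the RNA is degraded, was 7.34 ± 0.19 (SD, n = 5) with aspart and 7.32 ± 0.38 (SD, n = 6) with saline, with an exact two-sided permutation p of 0.965. Array medians lay between 6.64 and 6.71. Correlations between any 2 young arrays lay between 0.988 and 0.995 (Pearson, across transcript clusters). The markers of hippocampal neurons were present on every array. The 8 tested markers of dentate granule cells had means of 10.05 to 10.27 with aspart and 10.07 to 10.18 with saline, and the 15 of CA pyramidal cells 10.27 to 10.45 and 10.29 to 10.67.

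The arrays of aspart animal 3 and saline animal 5 stood apart from the other 9 through RNA of the choroid plexus, the epithelium that makes cerebrospinal fluid, and of the meninges. The mean of the 8 tested choroid plexus markers was 10.53 in aspart animal 3 and 11.50 in saline animal 5, and 6.92 to 7.91 in the others. For the 16 tested markers of meningeal fibroblasts these values were 8.70, 9.22 and 6.41 to 6.75, and for the 10 of mural cells, which wrap blood vessels, 8.42, 8.22 and 6.91 to 7.22. There was 1 such array in each group, so the main counts over all genes are given with all 11 arrays and without these 2. Single genes and lists are given with all 11 arrays unless stated.

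**Figure D1:**
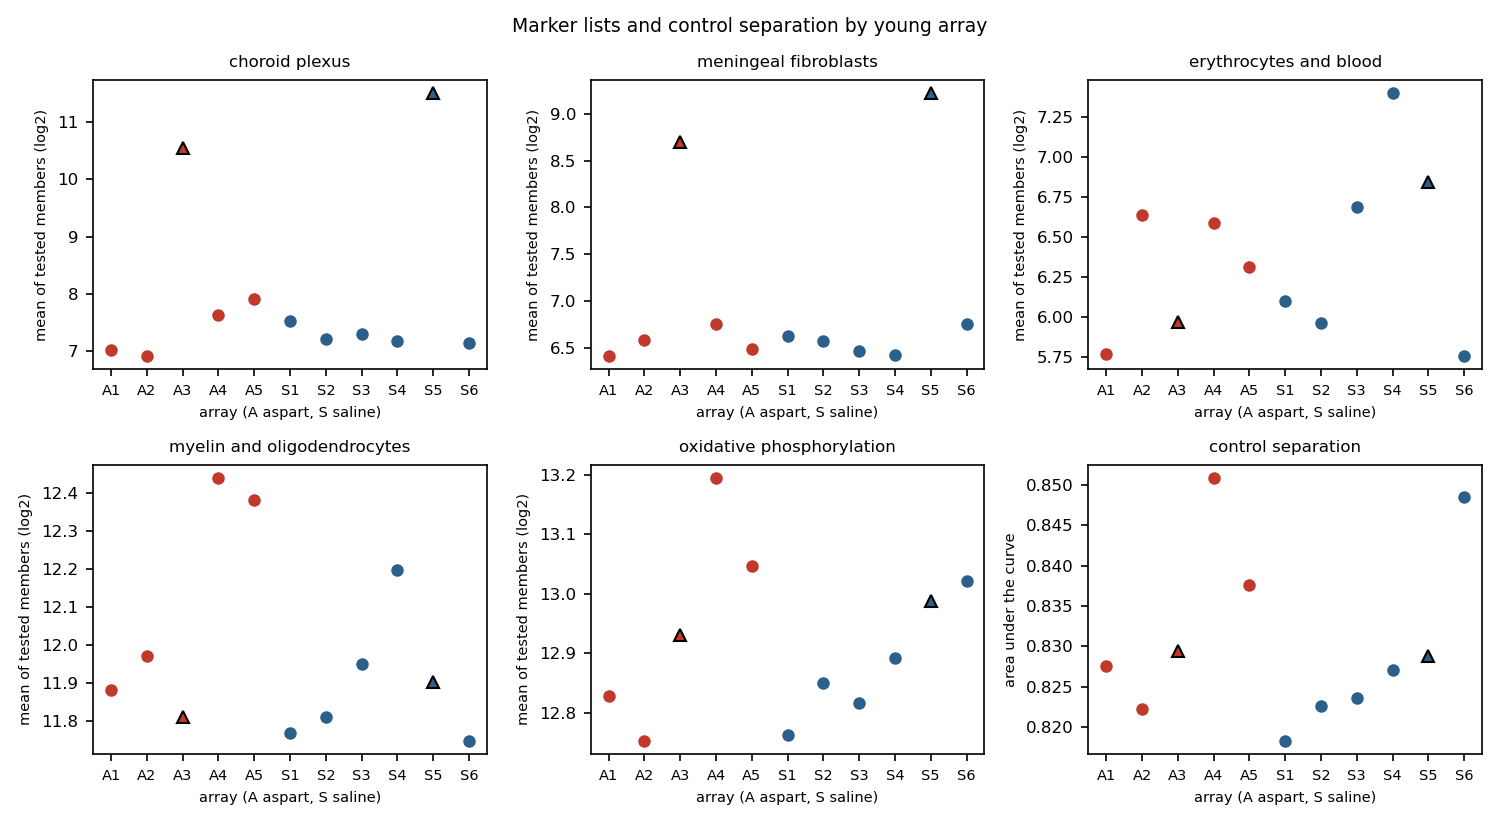
The panels plot, for each young array (A1 to A5 aspart, S1 to S6 saline), the mean log2 value of the tested members of 5 marker lists and, in the last panel, the area under the curve that separates positive from negative control features. Triangles mark the 2 choroid-rich arrays, which stand at 10.53 and 11.50 for choroid plexus markers against 6.92 to 7.91 in the others, and aspart animals 4 and 5 hold the 2 highest values for myelin markers, 12.44 and 12.38.

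No gene passed the test. With all 11 arrays limma called 0 of 11475 genes (0% called) at an adjusted p of 0.05, and the smallest adjusted p was 0.999. An unadjusted p under 0.05, which is the same as a 95 percent interval that leaves out 0, was found for 280 genes (2.44%), 152 higher (1.32%) and 128 lower (1.12%) with aspart. The change was above 0 in 5715 of the 11475 genes, with a median of -0.00064. Without the 2 choroid-rich arrays limma again called 0 genes (0%), with 362 at an unadjusted p under 0.05 (3.15%) and a smallest adjusted p of 1.00. Of the 280 and the 362 genes, 180 were shared with the same sign. The 5 aspart values lay wholly above or below the 6 saline values in 22 genes (0.192%), 10 above and 12 below.

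The intervals show which changes were excluded. Gene by gene, the 95 percent interval of the median gene reached 0.34 to either side of its estimate (1.27-fold), and 90 of 100 genes had a reach between 0.23 and 0.47. A change of 2-fold or more in either direction was excluded for 11433 genes (99.63%), and a change of 1.5-fold or more for 9429 (82.17%). Changes of 1.2-fold were excluded for 353 genes (3.08%) only, so differences of that size could not be seen in most genes. The fitted change itself was over 1.5-fold in 8 genes and over 2-fold in 0. With intervals widened to cover all genes at once by the Bonferroni method, 2-fold changes were excluded for 5241 genes (45.67%), 3-fold changes for 11193 (97.54%) and 4-fold changes for 11418 (99.5%). A gene of median error would have had to change by 0.91 on the log2 scale, 1.88-fold, to be called alone among 11475.

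Bright genes were measured more closely than dim ones. With the tested genes ordered by level and divided into 3 equal classes, the median reach of the interval was 0.38 in the dim, 0.34 in the middle and 0.28 in the bright class, and 1.5-fold changes were excluded for 71.06%, 82.64% and 92.81% of genes. Without the 2 choroid-rich arrays, the smaller groups gave wider intervals in most genes, with a median reach of 0.38. Changes of 1.5-fold were then excluded for 8080 genes (70.41%) and of 2-fold for 11402 (99.36%).

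**Figure D2:**
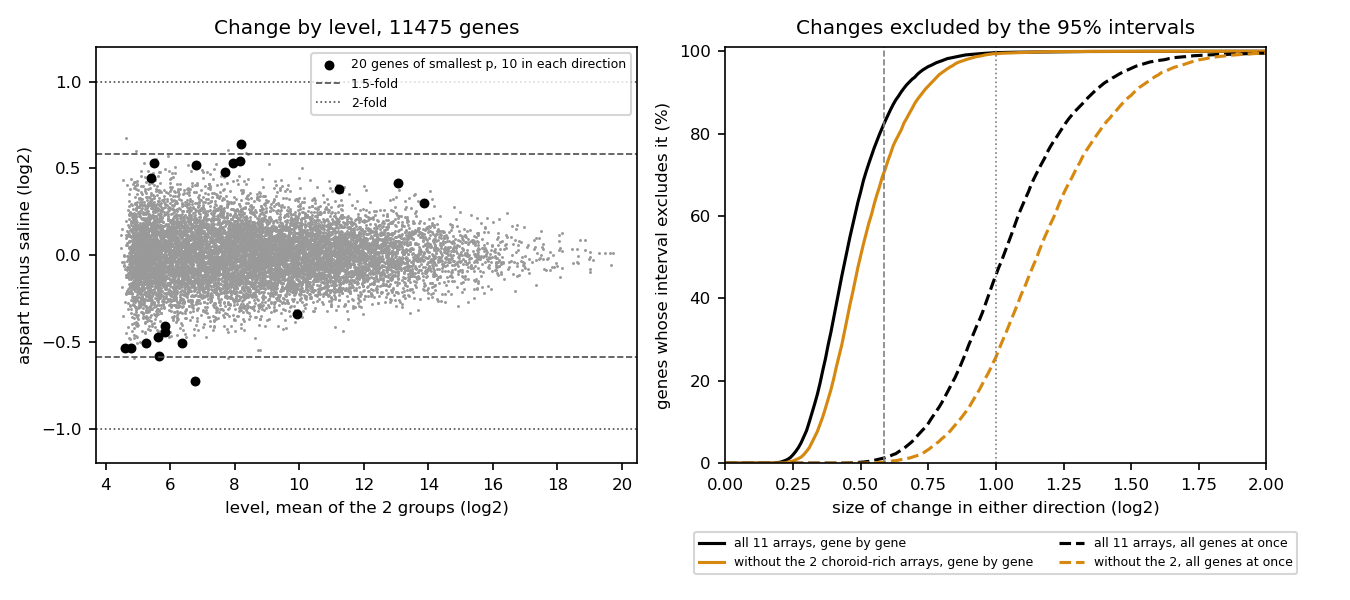
The left panel plots, for each of the 11475 tested genes, the change (aspart minus saline, log2) against the mean level, with dashed lines at 1.5-fold and dotted lines at 2-fold, and the 20 genes of smallest p in black. The right panel plots the percentage of genes whose 95 percent interval excludes a change of the size on the x axis. At 2-fold the curves stand at 99.63% gene by gene and 45.67% for all genes at once with all 11 arrays, and at 99.36% and 25.73% without the 2 choroid-rich arrays.

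The receptors for insulin and its relatives were measured closely and differed little. Insr read 9.41, 9.36, 9.55, 8.88 and 9.17 in the aspart animals, and in saline animals had a lowest value of 8.83, a median of 9.32 and a highest of 9.64. The groups overlapped throughout, and the change of 0.03 ± 0.16 (SE) had an interval of -0.30 to 0.35, or 0.813-fold to 1.28-fold. Igf1r, the receptor for insulin-like growth factor 1, read 9.88, 9.72, 10.22, 9.99 and 9.75 with aspart against 9.17, 9.84 and 10.12 as lowest, median and highest with saline. Its change was 0.16 ± 0.14, with an interval of -0.12 to 0.45. Of the adaptors, Irs1 differed by -0.07 ± 0.16 (-0.39 to 0.25) and Irs2 by -0.13 ± 0.18 (-0.49 to 0.23). All 4 intervals lay inside 1.5-fold.

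The ligands were less even. Ins1, which encodes insulin 1, read 6.29, 6.28, 6.31, 6.63 and 6.11 with aspart and 5.80, 5.92 and 6.16 as lowest, median and highest with saline, so that 4 of 5 aspart values lay above every saline value. The change was 0.37 ± 0.17, with an interval of 0.02 to 0.72 and an adjusted p of 0.999 by limma. Without the choroid-rich arrays it was 0.34 ± 0.20, with an interval of -0.06 to 0.74. The administered protein is not read by the array, and the level of this gene lay below the array medians. Ins2, the other rat insulin gene, chosen after its values were seen, stood at 0.21 ± 0.20.

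Igf1 and Igf2 each depended on single arrays. Igf1, a growth factor made in brain by neurons and microglia, read 7.19, 7.13, 7.64, 5.54 and 6.99 with aspart and 6.64, 7.11 and 7.43 as lowest, median and highest with saline. Aspart animal 4 was the lowest of the 11 and aspart animal 3 the highest, and the change of -0.20 ± 0.23 became -0.48 ± 0.24 (-0.97 to 0.01) without the choroid-rich arrays. Igf2, a growth factor made by choroid plexus and meninges, read 6.72, 6.62, 10.28, 6.88 and 6.98 with aspart, and 6.18, 6.71 and 11.23 as lowest, median and highest with saline. The 2 high values are those of the choroid-rich arrays. With all arrays its change was 0.13 ± 0.58, with an interval of -1.05 to 1.31 that does not exclude 2-fold, and without them 0.20 ± 0.24, with an interval of -0.28 to 0.68.

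Downstream of the receptor no gene passed either. Akt1 differed by 0.12 ± 0.14 (-0.16 to 0.39), Akt2 by 0.16 ± 0.13 (-0.10 to 0.43), Foxo1 by 0.13 ± 0.13 (-0.13 to 0.39) and Foxo3 by 0.04 ± 0.14 (-0.25 to 0.33). These intervals exclude 1.5-fold changes in the array values for the kinases and for the transcription factors they restrain. In the list of PI3K, AKT and mTOR genes, 16 of 28 tested members were higher and 12 lower, with a median of 0.01. The members farthest from 0 relative to their error were Pik3cd, a catalytic subunit of the lipid kinase (-0.28 ± 0.15), and Rheb, the small GTPase that turns on mTOR (0.21 ± 0.12). Pik3r3, a regulatory subunit singled out after its values were seen, was 1 of the 12 genes with all aspart values, 8.87 to 8.96, below all saline values, 8.98 to 9.64, yet its change of -0.25 ± 0.16 had an interval of -0.58 to 0.08.

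Genes that damp or answer the signal were spread around 0. The brakes on insulin signalling and the insulin proteases had 6 of 13 tested members higher and a median of -0.04. Of the 13 intervals, 13 lay inside 1.5-fold, and 12 did without the choroid-rich arrays. The list includes Ide, the protease that degrades insulin, at -0.07 ± 0.15 (-0.38 to 0.24), Phlpp1, a phosphatase of AKT, at 0.20 ± 0.11, and Ptpn2, a tyrosine phosphatase, at -0.16 ± 0.14. The targets of FOXO factors had 10 of 21 higher and a median of -0.01. Pdk4, which holds back glucose oxidation and is a textbook FOXO target, stood at -0.42 ± 0.28 with an interval of -0.98 to 0.14, so a fall of up to nearly 2-fold was not excluded. Of the IGF binding proteins 6 of 12 were higher, with Igfbp5 farthest from 0 relative to its error (0.40 ± 0.20, interval -0.01 to 0.82). Over the 5 insulin lists together, 88 of 94 genes on the array were tested, 47 higher and 41 lower, with a median of 0.01, against -0.00064 over all genes. Of the 88, 0 were called and 1, Ins1, had an unadjusted p under 0.05 (1.14%, against 2.44% of all genes), and 70 (79.55%) had an interval inside 1.5-fold, against 82.17% of all genes.

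**Figure D3:**
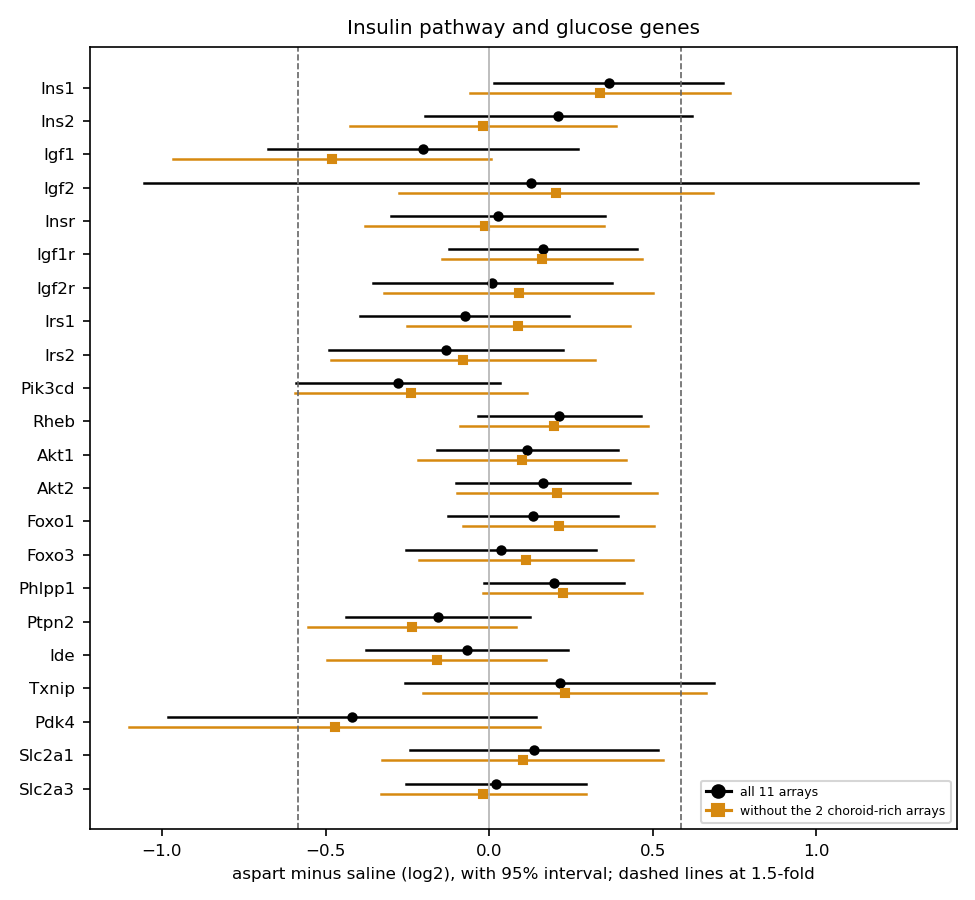
Each row plots the change of an insulin pathway or glucose gene (aspart minus saline, log2) with its 95 percent limma interval, in black with all 11 arrays and in orange without the 2 choroid-rich arrays, and dashed lines mark 1.5-fold. The Igf2 interval runs from -1.05 to 1.31 with all arrays and from -0.28 to 0.68 without the 2, and the interval of Insr lies between -0.30 and 0.35.

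Glucose transport and metabolism showed the same spread. Slc2a1, the glucose transporter of brain endothelium and glia, differed by 0.14 ± 0.19 (-0.24 to 0.52), and Slc2a3, that of neurons, by 0.02 ± 0.14 (-0.25 to 0.30). Slc2a4, the transporter that insulin brings to the surface of muscle and fat cells, was too dim to test, at 2.93 to 3.71 with aspart and 3.06 to 3.91 with saline. Txnip, which rises with glucose and limits its uptake, stood at 0.22 ± 0.23. Among the 31 tested genes of glucose transport and glycolysis, 14 were higher and 17 lower, with a median of -0.01 and 28 intervals inside 1.5-fold. Without the choroid-rich arrays 24 of the 31 intervals lay inside it.

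Lipid synthesis held several genes whose own intervals left out 0, in opposite directions. Srebf1, the factor through which insulin drives fatty acid synthesis, read 8.91, 9.08, 8.86, 9.80 and 9.07 with aspart and 8.54, 8.89 and 8.96 as lowest, median and highest with saline. Its change was 0.31 ± 0.15 (0.01 to 0.61), and aspart animal 4 stood well above the next highest array. Pnpla3, a lipase of lipid droplets, differed by -0.38 ± 0.18 (-0.74 to -0.02), and by -0.35 ± 0.20 (-0.77 to 0.06) without the choroid-rich arrays. In cholesterol synthesis and transport Sqle, which oxidises squalene, differed by -0.30 ± 0.12 (-0.53 to -0.06) and Stard4, a sterol carrier, by -0.41 ± 0.18 (-0.77 to -0.04). For all 4 genes the adjusted p by limma was 0.999. The lists as wholes had 10 of 16 fatty acid genes and 12 of 21 cholesterol genes higher, with medians of 0.08 and 0.03.

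Across all 43 gene lists, 0 members were called, 28 lists had no member at an unadjusted p under 0.05, and 40 medians lay within 0.1 of 0 (34 without the choroid-rich arrays). The 3 medians beyond 0.1 were those of myelin genes, immediate early genes and blood genes. The share of members at an unadjusted p under 0.05 was 20 of 665 over all lists (3.01%), near the 2.44% of all genes.

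**Figure D4:**
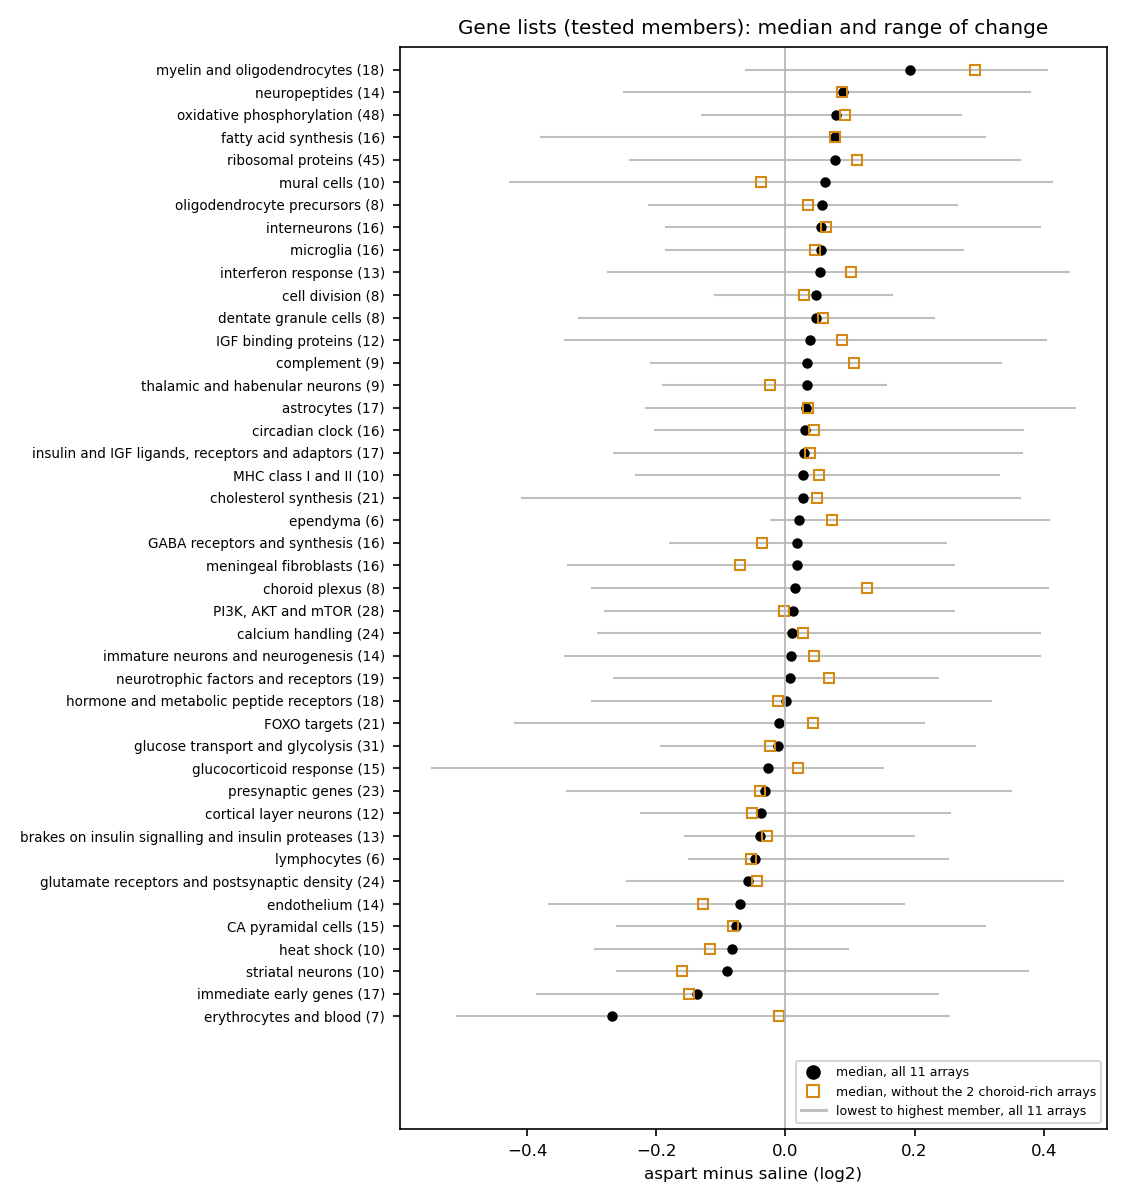
For each of the 43 gene lists, with the number of tested members in brackets, the plot gives the median change (aspart minus saline, log2) with all 11 arrays as a black dot, without the 2 choroid-rich arrays as an orange square, and the range from lowest to highest member as a grey line. Myelin genes have the highest median, 0.19 and 0.29, and blood genes the lowest, -0.27, which is -0.01 without the choroid-rich arrays.

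Myelin and oligodendrocyte genes had the highest median of the 43 lists. Oligodendrocytes wrap axons in myelin, and in whole tissue more of these cells and more RNA per cell cannot be told apart. Of 18 tested members 17 were higher with aspart, against 49.8% of all genes, with a median of 0.19, and without the choroid-rich arrays the same counts came with a median of 0.29. Called were 0, and 3 of the 18 had an unadjusted p under 0.05, against 2.44% of all genes. Without the choroid-rich arrays 6 of the 18 did, against 3.15% of all genes. Myelin genes followed the same few arrays, so the 18 are not independent of each other. The 3 with all arrays were Mog, a protein of the outer myelin surface (0.35 ± 0.15), Cnp, an enzyme of the myelin cytoplasm (0.30 ± 0.14), and Cldn11, the tight junction protein of myelin (0.33 ± 0.16). Mog read 13.55, 13.52, 13.33, 14.01 and 14.27 with aspart, and 13.12, 13.35 and 13.93 as lowest, median and highest with saline. The groups overlapped, and aspart animals 4 and 5 were the 2 highest.

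The same 2 animals led the list. Its mean was 11.88, 11.97, 11.81, 12.44 and 12.38 in the aspart animals and 11.77, 11.81, 11.95, 12.20, 11.90 and 11.75 in the saline animals. Of the 18 genes, 12 had their highest value in aspart animal 4 or 5 and 6 in saline animal 4. Mobp and Mbp, structural proteins of the myelin sheath, stood at 0.04 ± 0.10 and 0.08 ± 0.11. Without aspart animal 4 the median was 0.13, with 15 of 18 genes higher. The separation of positive from negative control features on the array, an area under the curve that is 1 when the 2 kinds do not overlap, was highest in aspart animal 4 (0.851) and saline animal 6 (0.849), and lay between 0.818 and 0.838 in the others. The former had the highest and the latter the lowest myelin mean of the 11. Without these 2 arrays the myelin median was 0.07, with 12 of 18 genes higher. Leaving out the highest aspart mean and the lowest saline mean narrows the difference whatever the control separation. That fit therefore cannot show the part of control separation. With control separation as a covariate and all arrays kept, the myelin median was 0.14. The part of control separation in the myelin values was not tested. Of the markers of oligodendrocyte precursors 5 of 8 were higher, with a median of 0.06.

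Other glia showed scattered differences. Gfap, the filament protein of astrocytes, read 13.96, 13.67, 13.82, 14.36 and 14.49 with aspart and 13.64, 13.71 and 13.94 as lowest, median and highest with saline. The 2 highest values again belonged to aspart animals 4 and 5, and the change was 0.29 ± 0.13 (0.02 to 0.57). Osmr, a cytokine receptor of reactive astrocytes, stood at 0.45 ± 0.17 (0.11 to 0.79), with 4 of 5 aspart values above every saline value. The 17 tested astrocyte markers had 11 higher and a median of 0.03, and the 16 of microglia 10 higher and a median of 0.05. Aif1, a calcium-binding protein of microglia, stood at 0.28 ± 0.20, and at 0.52 ± 0.20 without the choroid-rich arrays. Aspart animal 3 had the lowest value of the 11, 7.95.

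Genes of energy supply and protein synthesis lay slightly above 0. In oxidative phosphorylation 34 of 48 genes were higher, with a median of 0.08 and a highest change of 0.27. Of the 48 intervals 46 excluded 1.5-fold, and 42 did without the choroid-rich arrays. Of the 48 genes, 30 had their highest value in aspart animal 4, the array of highest control separation. Over all 11475 tested genes that array was the highest of the 11 in 1747 and the lowest in 1735. For ribosomal proteins 33 of 45 were higher, also with a median of 0.08. In both lists 0 members had an unadjusted p under 0.05.

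Few neuronal genes had an interval that left out 0. Grin2c, an NMDA receptor subunit, read 8.32, 7.68, 8.03, 8.39 and 8.42 with aspart and 7.30, 7.80 and 8.05 as lowest, median and highest with saline, a change of 0.43 ± 0.16 (0.10 to 0.76). Stx1a, a syntaxin that drives vesicle fusion, stood at -0.34 ± 0.13 (-0.61 to -0.07), with 3 of 5 aspart values below every saline value. Nectin3, an adhesion molecule of CA pyramidal cells, stood at 0.26 ± 0.11 (0.03 to 0.49), and at 0.25 ± 0.13 (-0.01 to 0.52) without the choroid-rich arrays. As lists, glutamate receptors with the postsynaptic density (11 of 24 higher, median -0.06), GABA receptors (9 of 16, 0.02), presynaptic genes (9 of 23, -0.03) and CA pyramidal markers (5 of 15, -0.08) were centred near 0. Other neuronal lists were more one-sided. Of interneuron markers 13 of 16 were higher (median 0.06), and of striatal neuron markers 1 of 10 (median -0.09, or -0.16 without the choroid-rich arrays). Bdnf, the neurotrophin of activity-dependent plasticity, differed by 0.24 ± 0.15 (-0.08 to 0.55).

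Immediate early genes, which neurons switch on within minutes of activity, were lower in 13 of 17 members, with a median of -0.14 and 0 at an unadjusted p under 0.05. Their mean was 9.14 to 9.44 with aspart, and 8.93 to 9.48 in 5 saline animals against 10.05 in saline animal 6. Junb, singled out after its values were seen, read 8.18 in that animal and 6.02 to 6.70 in the other saline animals. Only 8 of the 17 intervals excluded 1.5-fold, against 82.17% of all genes. Without the choroid-rich arrays 3 of the 17 did, against 70.41% of all genes. Heat shock genes were lower in 8 of 10, with a median of -0.08. Hspa5, the chaperone of the endoplasmic reticulum, stood at -0.29 ± 0.14 (-0.57 to -0.01).

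Vascular markers were divided. Of 14 endothelial markers 8 were lower, with a median of -0.07, and of 10 mural cell markers 6 were higher, with a median of 0.06, or of -0.04 without the choroid-rich arrays. Flt1, a receptor for vascular endothelial growth factor, read 8.02, 8.02, 8.49, 7.87 and 8.03 with aspart and 8.21, 8.41 and 8.86 as lowest, median and highest with saline. Its change was -0.37 ± 0.17 (-0.71 to -0.02), with aspart animal 3, the choroid-rich array, as the highest of its group. Vegfa, the ligand of that receptor and singled out after its values were seen, was among the 12 genes with aspart wholly below saline, at 11.58 to 11.84 against 11.84 to 12.23, and its change was -0.27 ± 0.21 (-0.70 to 0.17). In the 21-month-old animals the changes were 0.14 for Flt1 and 0.38 for Vegfa.

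The genes for which a 2-fold change was not excluded numbered 42. Of these, 16 were on the choroid plexus, meningeal, mural or blood lists, and in 19 of the 42 aspart animal 3 and saline animal 5 were each the highest of their group. Ttr, the thyroid hormone carrier of the choroid plexus, read 6.77, 7.56, 18.13, 11.13 and 13.36 with aspart and 8.11, 9.26 and 19.52 as lowest, median and highest with saline. Its change was 0.41 ± 1.67, with an interval from -2.98 to 3.80, and even without the 2 arrays it was 0.43 ± 1.25. The potassium channel Kcnj13 (-1.51 to 1.79), the anti-ageing hormone Kl (-1.25 to 1.06) and the prolactin receptor Prlr (-1.25 to 0.65) had narrower intervals that still held a 2-fold change.

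Blood genes were also among the 42, of which 5 encode haemoglobins. Hba-a1, an alpha chain, read 9.39, 12.51, 10.11, 11.90 and 10.64 with aspart and 9.60, 11.01 and 14.49 as lowest, median and highest with saline. The highest value was that of saline animal 4, and the change of -0.41 ± 1.29 ran from -3.03 to 2.20. The blood list had a median of -0.27 with all arrays, the lowest of the 43, and of -0.01 without the 2 choroid-rich ones.

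The 20 genes of smallest p, 10 in each direction, were chosen by that p, and their values are given as a description. The lists hold only 665 of the 11475 tested genes, so they cannot say whether these 20 share a pathway. Among the higher ones was St3gal4, which adds sialic acid to glycoproteins. It read 8.18, 8.39, 8.47, 8.48 and 8.62 with aspart and 7.53, 7.91 and 8.14 as lowest, median and highest with saline, a change of 0.54 ± 0.15 (1.46-fold, interval 1.17-fold to 1.81-fold). Aif1l, an actin-binding relative of Aif1, read 8.46, 8.06, 8.04, 8.79 and 9.20 against 7.61, 7.96 and 8.01, a change of 0.64 ± 0.19 (1.56-fold, log2 interval 0.26 to 1.02). Every aspart animal lay above every saline animal for both, and also for Alkbh5, an RNA demethylase (0.53 ± 0.17).

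Of the other higher genes, Gpr37, a receptor abundant in oligodendrocytes, stood at 0.42 ± 0.12 with 4 of 5 aspart values above every saline value. Aspart animal 5 was its highest at 13.69. The rest were Dusp16, a phosphatase of stress kinases (0.52 ± 0.16), Mfhas1 (0.48 ± 0.16), Wbp1 (0.38 ± 0.12), Fmc1, an assembly factor of mitochondrial ATP synthase (0.44 ± 0.15), Tkfc, a triose kinase (0.53 ± 0.18), and Sec11c, a subunit of the signal peptidase (0.30 ± 0.10). The adjusted p by limma was 0.999 for each of the 10.

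Of the lower genes, Efcab7, a ciliary protein of the hedgehog pathway, had the smallest p of all genes. It read 6.79, 6.55, 6.55, 6.36 and 5.86 with aspart and 6.50, 7.17 and 7.72 as lowest, median and highest with saline, a change of -0.73 ± 0.19 (0.605-fold, adjusted p = 0.999 by limma). The groups overlapped through saline animals 4 and 6, the lowest of the saline animals. Spata22, a meiosis gene (-0.51 ± 0.17), and Ago3, an argonaute protein of the microRNA pathway (-0.34 ± 0.12), were the 2 lower genes without overlap. The rest were Hs3st3a1, a heparan sulfate sulfotransferase (-0.54 ± 0.18), Gabre, a GABA receptor subunit (-0.54 ± 0.18), C1qtnf1 (-0.47 ± 0.16), P3h1, a collagen prolyl hydroxylase (-0.50 ± 0.17), S100g, a calcium-binding protein (-0.58 ± 0.21), Myh3, a muscle myosin (-0.41 ± 0.14), and Or52n20, an olfactory receptor gene (-0.44 ± 0.16). Of the 10, all but Ago3 and Efcab7 had a mean under 7 in both groups, near the dim end of the tested genes.

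Without the 2 choroid-rich arrays all 20 genes kept their sign and 19 kept an unadjusted p under 0.05. The exception was S100g (-0.39 ± 0.21), whose lowest value, 4.63, belonged to aspart animal 3. In that fit Necap2, an endocytosis protein (0.70), Or5aq6 (0.76) and Senp18 (0.59) joined the 5 higher genes of smallest p, and Fam180a (-0.55), Thpol1 (-0.68) and Ttc39b (-0.45) the 5 lower ones. Thpol1 stood at -0.35 with all arrays, where saline animal 5 read 7.39 against 8.17 to 8.93 in the other saline animals.

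**Figure D5:**
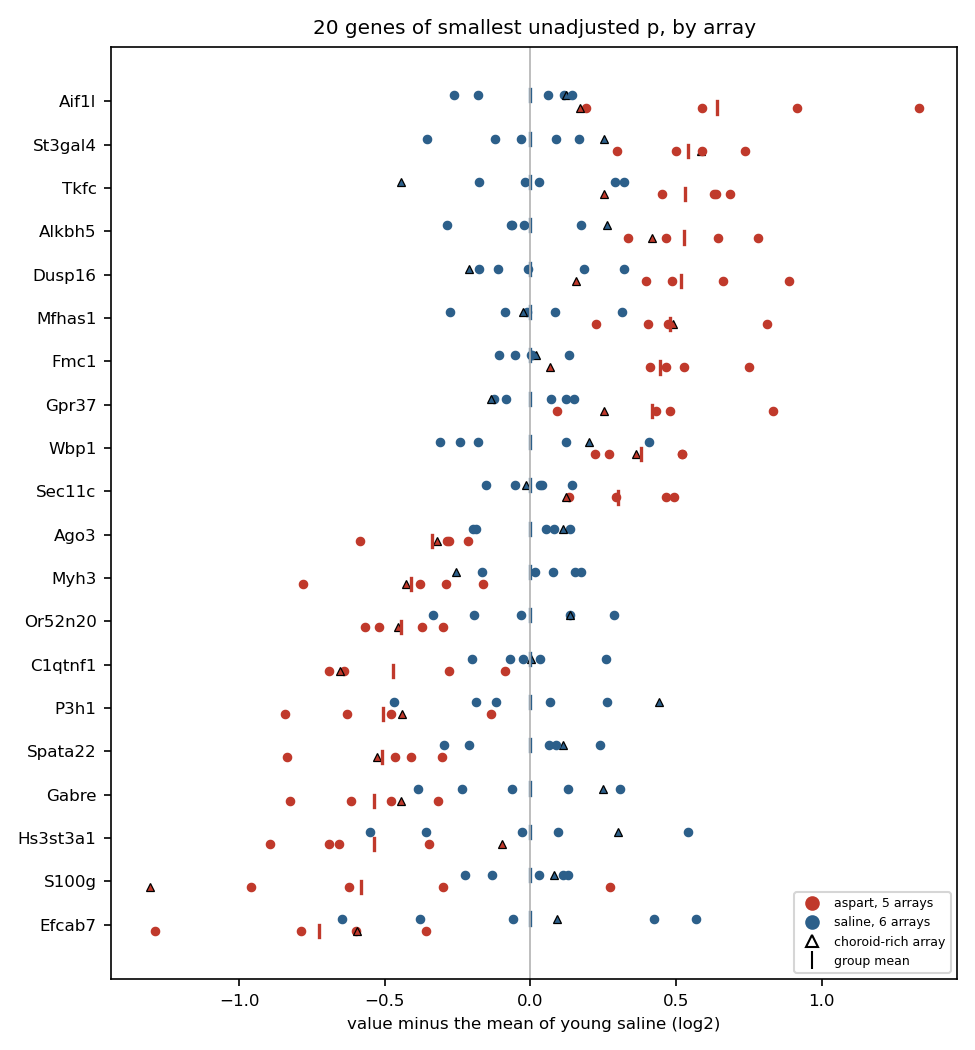
Each row plots a gene of smallest unadjusted p, with each array's value minus the young saline mean (log2) in red for the 5 aspart and blue for the 6 saline animals, triangles for the choroid-rich arrays and bars for group means. The groups do not overlap for Aif1l, St3gal4, Alkbh5, Ago3 and Spata22, and the genes were chosen by the same values that are plotted.

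The 21-month-old animals, 7 with aspart and 8 with saline, are independent of the young ones. There limma called 0 genes (0%), with 538 at an unadjusted p under 0.05 (4.69%). Of the 20 genes, 15 had the same sign as in young animals and 0 an unadjusted p under 0.05. St3gal4 stood at 0.19, Gpr37 at 0.12 and Aif1l at 0.02, while Efcab7 stood at 0.27, with the sign turned. Of the 280 genes of small p in young animals, 180 had the same sign in aged animals, and 16 had a p under 0.05 with the same sign and 4 with the opposite one. Over all genes the sign was the same in 59.34%, and the Pearson correlation of the 2 changes was 0.22 across 11475 genes, which are not independent of each other. Control separation in aged animals lay between 0.817 and 0.872 with aspart and between 0.815 and 0.827 with saline. Its part in the shared signs was not tested.

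The difference of the effect between ages was tested directly, and limma called 0 genes (0%), with 203 at an unadjusted p under 0.05 (1.77%) and a smallest adjusted p of 1.00. The genes of smallest p were Efcab7 (-0.73 in young and 0.27 in aged animals), Loxl3, a lysyl oxidase (-0.13 and 0.70), Scarf2, a scavenger receptor (-0.34 and 0.36), Rpp38, a subunit of ribonuclease P (0.39 and -0.31), and Cdh7, a cadherin (-0.28 and 0.40). The interval of this difference reached 0.45 to either side in the median gene, and a 2-fold difference between ages was excluded for 11158 genes (97.24%).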

How the data were processed

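Biotin-labelled RNA of 26 right hippocampi was measured on Affymetrix rat Clariom S arrays. Per the submitters' processing notes the authors used Partek and RMA, a method that corrects background, quantile-normalises and summarises probes. No versions are named there. The authors' deposited values lie between 2.18 and 19.93 on what was taken as a log2 scale, as RMA gives, though the file names no base. In 216 transcript clusters the mean is above 16, which exceeds what a scanner of 16 bits gives, so folds are on the table's own scale. Array number, not read depth, limits the precision.

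Of 24834 features, 1646 are controls, 15049 clusters carry 1 gene symbol in the annotation used here, 0 carry several and 8139 are unnamed. The brightest cluster was kept for 10 genes with several, leaving 15037 genes. Genes above the table's 30th percentile, 5.06, on at least 5 arrays were tested (11475; 3562 were dim). The means of 4 groups, taken from the titles, were fitted with limma 3.58.1 in R 4.3.3 (22 residual degrees of freedom, intensity trend), two-sided, with Benjamini-Hochberg adjustment over all genes at 0.05. The spread of aged animals thus enters each error. Intervals are at 95 percent; those for all genes at once use the Bonferroni level. Array measures were compared with exact permutation tests over 462 splits, adjusted over 3 measures. The code was tested on simulated data.

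Since under 5 genes passed, the named genes were the 10 of smallest p in each direction (without loci lacking a name and receptors prefixed Olr, Olfr, Vom, Vmn or Tas), 5 in each direction without the 2 choroid-rich arrays, 2 of each list, 5 of the interaction, and 19 fixed genes, of which 18 are reported here. The members, the 43 lists and the setting apart of 2 arrays were chosen with earlier results of these data known, and lists are described, not tested. Of the columns, 0 could not be mapped to a sample.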

Additional observations from a re-analysis of the deposited data

Results flagged for a closer look

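Single arrays far from the rest of their group were looked for in 350 groups of 5 or 6 values, and 35 were found. The values were those of the named genes, the list means and the array measures. About 1 in 20 groups would be flagged if all were independent and normally distributed. Lists and named genes share members, so that rate is no test of the 35. Of these, 12 fell on aspart animal 3 and 11 on saline animal 5, the choroid-rich arrays, and no cause was tested for any of the 35.

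In aspart animal 3, high values were found for Bgn (10.57), Igf2 (10.28), Prlr (8.14), Flt1 (8.49) and Cux2 (6.93), and for the list means of insulin and IGF ligands, receptors and adaptors (8.53), hormone and metabolic peptide receptors (8.74), choroid plexus (10.53), meningeal fibroblasts (8.70) and mural cells (8.42). The list means of oligodendrocyte precursors (9.18) and interneurons (10.54) were low there. The high insulin list mean is that of a list that holds Igf2.

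In saline animal 5, high values were found for Bgn (10.997), Igf2 (11.23), Lum (7.72), Prlr (9.10), Ttr (19.52) and Atp5po (10.82), and for the list means of IGF binding proteins (8.01), choroid plexus (11.50), meningeal fibroblasts (9.22), endothelium (8.28) and mural cells (8.22).

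Aspart animal 4 was low for Ago3 (9.50) and Usp18 (5.10) and high for Srebf1 (9.80) and Tmem212 (7.09). Saline animal 6 was high for Cfap126 (5.40) and control separation (0.849) and low for Srebf1 (8.54), so both ends of the Srebf1 difference held a distant array. Saline animal 3 was low for Ccn3 (12.55) and Hspa5 (14.87), saline animal 4 low for Slc8a2 (11.87) and high for the list mean of lymphocytes (6.11), and aspart animal 1 high for Tac3 (8.66).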

How the results depend on the processing

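In each of 11 fits that left out 1 young array, limma called 0 genes, with 195 to 404 genes at an unadjusted p under 0.05, a smallest adjusted p of 0.634 (without saline animal 6) and 1.5-fold changes excluded for 73.38% to 79.67% of genes. The myelin median ranged from 0.13 to 0.29 in these fits. Of 16 other settings, 0 gave a call. They changed the filter, the normalization, the variance model, the covariates or the arrays used; the one without aspart animal 4 and saline animal 6 was added after the data were seen. The 20 genes of smallest p kept their sign in every setting that tested them, but a filter at the table's median tested only 11 of them. The difference between ages gave 0 calls in 26 fits leaving out 1 array each, with a smallest adjusted p of 0.489. A gene was counted as moved if its change shifted by over 1 SD of single arrays. Leaving out 1 array, or 1 array of each group, cannot shift the change of a gene that far. Changing the filter or the variance moderation, or fitting the young arrays alone, leaves the change as it is. Only other normalization, array weights, covariates or the replicate block could have moved a gene. Smaller shifts, such as that of Igf1 without the choroid-rich arrays, were not counted. Of 128 named genes compared, 0 moved by over 1 SD. Of 1161 list medians compared, 5 did: those of neurotrophic factors (0.07 without the choroid-rich arrays, 0.06 without saline animal 4, 0.05 without aspart animal 4 and saline animal 6), of lymphocytes (-0.15 with the filter at the median) and of the brakes on insulin signalling (0.07, with the sign turned, without aspart animal 4 and saline animal 6). Deviations of same-numbered animals of the 2 groups had correlations of -0.23 to 0.25. So few correlations cannot decide whether the numbers pair the animals, and the labels do not say. With the replicate block in the 11 young arrays, limma called 0 genes, with a smallest adjusted p of 0.824. An unadjusted p under 0.05 was then found for 639 genes, against 308 in the 11 young arrays without the block.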
